A study of Mus musculus with 16 samples.

Results

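The protein subunits of oxidative phosphorylation are described here from the transcripts of cultured mouse bone marrow-derived mast cells. Members were all genes whose symbols begin with Nduf followed by a, b, c, s or v, Sdha to Sdhd, those beginning Uqcr, Cox4 to Cox8 or Atp5, and the mitochondrially encoded mt-Nd, mt-Co, mt-Atp and mt-Cytb genes. Names ending in -ps or beginning Gm were left out, and a mean of at least 1 RPM (reads scaled to the depth of each library) over the 16 libraries was required. The rule kept 102 of 55487 genes, 89 in the nuclear genome and 13 in the mitochondrial genome. It left out 9 matching genes below the minimum, and the members just inside and just outside it were the muscle isoforms Cox7a1 at a mean of 1.38 RPM and Cox6a2 at 0.0515 RPM. All 102 members also passed the count filter of the test. The symbols bring in 8 assembly factors of complex I (Ndufaf1 to Ndufaf8), which build the complex without being part of it. The processed pseudogenes Ndufb4c and Cox6c2 are also among them.

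The study grew cells from mice on a C57BL/6 background that lacked Nbeal2 (Nbeal2-/-) or were wild type (WT), with or without the cytokine IL-33. Each of the 4 groups, Nbeal2-/- with IL-33, WT with IL-33, Nbeal2-/- untreated and WT untreated, held 4 libraries of poly(A)-selected RNA. Nbeal2 encodes a scaffold protein of the BEACH family that is needed for the alpha granules of platelets, and IL-33 is an alarmin that mast cells sense through the receptor subunit encoded by Il1rl1. How much IL-33 was given and for how long, how old the cultures were, which part of Nbeal2 was deleted and whether replicates are separate animals is not given in the sources used here. The p-values therefore reflect no more than the spread between these libraries.

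Oxidative phosphorylation takes place in the inner mitochondrial membrane. Complex I accepts electrons from NADH and complex II from succinate, complex III passes them on to cytochrome c, and complex IV hands them to oxygen. Complexes I, III and IV pump protons, and ATP synthase uses the returning protons to make ATP. Every complex except II is a mosaic of subunits made in the cytosol from nuclear genes and a few hydrophobic core subunits made inside the mitochondrion from its own genome, so its assembly needs transcripts of both genomes. Mast cells hold few mitochondria and take much of their energy from glycolysis, while respiration and mitochondrial ATP are known to support their degranulation and cytokine release.

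Mitochondrial messengers differ from nuclear ones in a way that bears on a poly(A)-selected library, and the ends of 5 of them are shown for that reason. Their tails are short, and in several the tail itself completes the stop codon. The last 24 bases of the annotated transcripts, from the GENCODE M21 set on GRCm38, are given 5′ to 3′ with the letters of the stop codon in capitals.
mt-Co3: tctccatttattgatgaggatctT
mt-Cytb: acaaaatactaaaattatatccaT
mt-Nd4: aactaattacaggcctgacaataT
mt-Co1: ccaacctatgtaaaagtaaaaTAA
mt-Nd6: attatcgagattactcgagatTAA
The transcripts of mt-Co3, mt-Cytb and mt-Nd4 end in a lone T, to which the tail adds the missing A bases, while the other 10 encode a complete stop codon. mt-Nd6 is the only member transcribed from the opposite strand of the mitochondrial genome, and in human cells its messenger is known to carry little or no tail. Its gene (chrM:13552-14070) overlaps the end of mt-Nd5 (chrM:11742-13565), and mt-Atp8 overlaps mt-Atp6 as mt-Nd4l overlaps mt-Nd4. The members of the last 2 pairs lie on the same strand, so reads in their overlaps cannot be assigned by strand, and for mt-Nd5 and mt-Nd6 whether the counting used strand is not given in the sources used here. Counts of reads in the overlaps are therefore uncertain, and their weight in the totals of these 6 genes was not tested. In the test for IL-33 below, mt-Co3, mt-Cytb and mt-Nd4 fell in both genotypes. With all libraries mt-Nd4l, mt-Nd5, mt-Nd6 and mt-Atp8 did not pass. In a fit given below that leaves out some untreated libraries, mt-Nd4l, mt-Nd5 and mt-Atp8 fell too. The part of tails and overlaps in these results was not tested.

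Nuclear members are known to share promoter elements for the factors NRF1, GABP (an ETS factor) and YY1, and 3 promoters are shown for members on which the results turn: Atp5pb, which had the largest nuclear rise with IL-33 in WT cells, Cox7a2l, which had the largest nuclear fall in both genotypes, and Atp5g2, which moved with genotype. Each sequence runs 5′ to 3′ on the minus strand, from 250 bases before to 50 after the start of the gene in RefSeq on GRCm38.p6, with motif matches in capitals.
Atp5pb, chr3:105959214-105959513: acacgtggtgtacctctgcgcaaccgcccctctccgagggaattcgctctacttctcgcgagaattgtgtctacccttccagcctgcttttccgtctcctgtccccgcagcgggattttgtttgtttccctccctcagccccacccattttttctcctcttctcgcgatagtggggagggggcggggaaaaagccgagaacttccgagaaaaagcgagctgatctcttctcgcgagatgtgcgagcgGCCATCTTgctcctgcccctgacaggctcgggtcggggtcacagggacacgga
Atp5g2, chr15:102670998-102671297: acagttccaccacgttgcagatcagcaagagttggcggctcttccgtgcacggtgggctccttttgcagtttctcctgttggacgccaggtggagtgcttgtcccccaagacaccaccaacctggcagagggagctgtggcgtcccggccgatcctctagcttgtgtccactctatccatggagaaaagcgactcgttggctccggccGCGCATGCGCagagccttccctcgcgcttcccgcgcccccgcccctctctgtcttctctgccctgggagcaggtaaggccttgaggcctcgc
Cox7a2l, chr17:83514284-83514583: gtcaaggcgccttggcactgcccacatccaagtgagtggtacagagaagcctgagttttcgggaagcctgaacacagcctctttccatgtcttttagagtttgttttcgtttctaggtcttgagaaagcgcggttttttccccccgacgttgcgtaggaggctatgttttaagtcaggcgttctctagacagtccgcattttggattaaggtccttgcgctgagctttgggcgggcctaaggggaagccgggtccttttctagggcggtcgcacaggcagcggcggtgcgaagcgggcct
The capitals in Atp5pb mark the reverse complement of the YY1 motif AAGATGGC, and those in Atp5g2 mark overlapping matches to the NRF1 core GCGCATGC on both strands. The Cox7a2l window holds no match to these letters or to the ETS motif CCGGAAG. Of the 89 nuclear members, 74 had a promoter in the table. On either strand the NRF1 core lay in 12 of them (16.2%, against 2.80% of 27025 promoters of all genes), CCGGAAG in 18 (24.3%, against 9.12%) and AAGATGGC in 10 (13.5%, against 2.88%). At least 1 of the 3 motifs lay in 34 of the 74 promoters (45.9%, against 13.8% of all). These counts describe letters in a window and not binding.

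The libraries were checked before the members were compared. Totals ran from 36405209 to 57694499 counted reads, so 1 RPM stood for at least 36.4 counts. Nbeal2 had 70.7 ± 5.38 CPM in Nbeal2-/- cells with IL-33 and 236 ± 35.2 CPM in WT cells with IL-33 (SD, n = 4 each; CPM are depth-scaled counts after TMM normalization). Untreated, it had 92.6 ± 8.13 CPM in Nbeal2-/- cells and 377 ± 103 CPM in WT cells. The differences, log2 -1.74 with IL-33 (adjusted p = 1.05e-05) and -2.02 untreated (adjusted p = 1.00e-06), went with the genotype labels. All 8 mast cell markers (Kit, Fcer1a, Ms4a2, Cpa3, Tpsb2, Hdc, Il1rl1 and Gata2) were detected in every group, although a label of the samples expands the name of the cells as mononuclear cells. Their summed level was 37292 to 40618 RPM in Nbeal2-/- cells with IL-33, 46899 to 48211 RPM in WT cells with IL-33, 36432 to 40298 RPM in untreated Nbeal2-/- cells and 49635 to 51684 RPM in untreated WT cells, so it was lower in every Nbeal2-/- library. Tpsb2 differed most, at 8710 to 11519 RPM in Nbeal2-/- and 17237 to 18713 RPM in WT cells with IL-33. Untreated, Tpsb2 had 2375 to 4066 RPM in Nbeal2-/- and 9588 to 10639 RPM in WT cells. Kit and Il1rl1 were also lower in every Nbeal2-/- library, and Cpa3 and Ms4a2 only in untreated cells. Fcer1a, Gata2 and Hdc overlapped between genotypes with IL-33 and untreated. Sums of 6 macrophage markers were 16.3 to 40.2 RPM and of 6 neutrophil markers 0.730 to 2.00 RPM, with Elane, Camp and S100a9 at 0 in every library. Sums of 3 basophil markers were 269 to 287 RPM in Nbeal2-/- and 288 to 337 RPM in WT cells with IL-33. Untreated, they were 301 to 344 RPM and 363 to 435 RPM. Of these, Mcpt8 had 42.0 to 104 RPM with IL-33 and 3.48 to 10.7 RPM untreated. Cd200r3 went the other way, at 181 to 241 RPM and 289 to 429 RPM, and Prss34 overlapped. Their part in the results was not tested.

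The untreated libraries numbered 1 of both genotypes stood apart from the other 3 of their group. In them the nuclear members had a median deviation from the group mean of 0.26 (Nbeal2-/-) and 0.21 (WT) on the log2 scale. Genes with short transcripts were also high there: the length quartile of tested genes with the shortest transcripts deviated by a median of 0.13 (Nbeal2-/-) and 0.092 (WT), and the quartile with the longest by -0.12 (Nbeal2-/-) and -0.088 (WT). Nuclear members are short, with a median of 1675 nucleotides, and 52 of the 89 fall in the shortest quartile. The WT library also had 224 CPM of Nbeal2, against 413 to 448 CPM in the other untreated WT libraries. Counts of members that rest on the untreated groups are therefore given with and without these libraries, and single members where leaving them out changed the call. The edgeR quasi-likelihood test with Benjamini-Hochberg adjustment over 15470 genes (15443 without these libraries) was used throughout, with a threshold of 0.05.

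By level, the mitochondrial genome dominated. In RPKM, which is per length, mt-Co1, the catalytic core of complex IV, stood highest with a mean of 5795 over the 16 libraries, and mt-Co2, which carries the copper site that takes electrons from cytochrome c, followed at 3022. The proton-channel subunit mt-Atp6 had 2770.0 RPKM and the complex IV core subunit mt-Co3 2618 RPKM. The median over the 13 mitochondrial members was 1202 RPKM, with mt-Nd6 lowest at 42.1 RPKM, and the median over the 89 nuclear members was 39.1 RPKM. In single libraries the mitochondrial median was 25.5 to 41.8 times the nuclear median. Among nuclear members the highest was Cox8a, a small subunit of complex IV, at 247 RPKM, and the lowest was Ndufb2, an accessory subunit of complex I, at 1.29 RPKM. From high to low, the medians were those of complex IV (82.9 RPKM), ATP synthase (67.1 RPKM), complex III (60.7 RPKM), complex II (47.2 RPKM), complex I (35.02 RPKM) and the complex I assembly factors (7.07 RPKM). The ranges of neighbours in this order overlapped throughout.

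With IL-33, the 13 mitochondrially encoded subunits took a smaller share of the counted reads in both genotypes. In Nbeal2-/- cells the 13 members summed to 21277, 21931, 22488 and 20391 RPM with IL-33, against 27252, 26857, 29413 and 27575 RPM untreated. WT cells had 21479, 23113, 22309.7 and 20661 RPM with IL-33, against 27047, 29313, 29833 and 27153 RPM untreated. Every library with IL-33 lay below every untreated library of either genotype. The other genes of the mitochondrial genome, which encode no protein, summed to 1891, 1820.0, 1894 and 1593 RPM with IL-33 against 2062, 1969, 2179 and 2120.2 RPM untreated in Nbeal2-/- cells, and to 1953, 2027, 1774 and 4655 RPM against 2254, 2158, 1938 and 2000.3 RPM in WT cells. Their groups did not overlap in Nbeal2-/- cells and overlapped in WT cells, where the IL-33 library numbered 4 was far above all others. As a share of all counted reads, the sum of the 13 members was 2.15 ± 0.0902% and 2.19 ± 0.106% in Nbeal2-/- and WT cells with IL-33, and 2.78 ± 0.113% and 2.83 ± 0.144% in untreated Nbeal2-/- and WT cells (SD, n = 4 each). Other transcripts moved with that sum: 6 megakaryocyte markers summed to 1451 to 1556 RPM in Nbeal2-/- and 1468 to 1503 RPM in WT cells with IL-33, and to 2039 to 2238 RPM in Nbeal2-/- and 2290 to 2430 RPM in WT cells untreated. Itga2b and Vwf carried that sum, while Ppbp was at 0 in every library and Pf4 and Gp1bb reached at most 0.0606 and 0.0254 RPM. Gp9 went the other way at a low level, at 1.54 to 3.52 RPM with IL-33 and 0.159 to 0.600 RPM untreated. Sums of 4 erythroid markers were 6.38 to 11.3 RPM with IL-33 and 0.610 to 2.04 RPM untreated. Hbb-bs carried that rise, at 6.34 to 11.1 RPM with IL-33 and 0.254 to 0.528 RPM untreated. Hba-a1 was lower with IL-33 in both genotypes, at 0.0347 to 0.330 RPM against 0.279 to 1.68 RPM untreated. The part of these markers in the result was not tested. These values are shares of the reads of bulk libraries. Fewer cells with many such transcripts, less of this RNA per cell and more of other RNA cannot be told apart.

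The 89 nuclear members did not follow. In Nbeal2-/- cells they summed to 8052, 8267, 8161 and 8512 RPM with IL-33, against 9986, 8253, 8381 and 8633 RPM untreated. WT cells had 7963, 8087, 8413 and 8254 RPM with IL-33, against 8810.2, 7032, 7748 and 7374 RPM untreated. The untreated groups spanned those with IL-33 in WT cells and overlapped them in Nbeal2-/- cells, and in both the highest untreated value belonged to the library numbered 1. The ratio of the mitochondrial to the nuclear sum was 2.64, 2.65, 2.76 and 2.40 in Nbeal2-/- cells with IL-33 and 2.70, 2.86, 2.65 and 2.50 in WT cells with IL-33. Untreated, it was 2.73, 3.25, 3.51 and 3.19 in Nbeal2-/- cells and 3.07, 4.17, 3.85 and 3.68 in WT cells. In WT cells the groups did not overlap, while in Nbeal2-/- cells the untreated library numbered 1, at 2.73, lay below the highest library with IL-33, at 2.76.

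**Figure D1:**
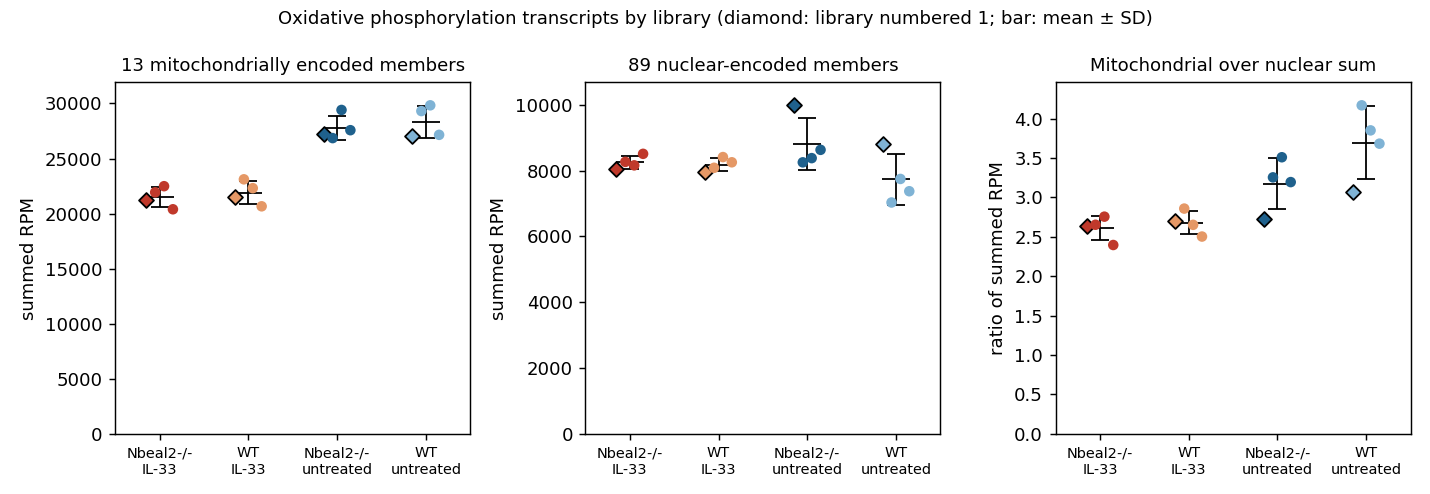
Summed level of the 13 mitochondrially encoded and the 89 nuclear-encoded members in RPM, and the ratio of the sums, by group. Points are libraries, diamonds the libraries numbered 1 and bars the mean ± SD of 4. The mitochondrial sum is 20391 to 23113 RPM in all libraries with IL-33 and 26857 to 29833 RPM in all untreated libraries, and the nuclear sum is highest in the untreated libraries numbered 1.

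Gene by gene, 9 of the 13 mitochondrial members fell with IL-33 in Nbeal2-/- cells, where 27.9% of all genes tested were called lower, and 9 fell in WT cells, where 28.6% were. They were the same 9 genes, and none was called higher (27.2% of all genes in Nbeal2-/- cells and 28.9% in WT cells were). For the higher direction 0 members had an unadjusted p under 0.05 in this edgeR fit, and DESeq2 and limma-voom each called 0. The median log2 fold change of the 13 was -0.27 in Nbeal2-/- and -0.26 in WT cells, against -0.013 and 0.0029 over all genes tested.

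Of the core subunits of complex IV, mt-Co1 had 7989, 7941, 8301 and 7427 CPM in Nbeal2-/- cells with IL-33, against 9029, 8934, 10016 and 9232 CPM untreated. In WT cells mt-Co1 had 8025, 8767, 8477 and 7691 CPM with IL-33, against 9495, 10882, 10758 and 9779 CPM untreated. In both genotypes each library with IL-33 was below each untreated one, and the log2 fold changes were -0.23 (SE 0.057, adjusted p = 0.00210) in Nbeal2-/- and -0.31 (SE 0.057, adjusted p = 0.000147) in WT cells. For mt-Co2 the values were 1755, 1760.4, 1869.6 and 1686 CPM with IL-33 against 2619, 2045, 2315 and 2077 CPM untreated in Nbeal2-/- cells. They were 1785, 1896, 1855 and 1713 CPM against 2656, 2316, 2410.4 and 2172 CPM in WT cells. Again no library overlapped, and mt-Co2 fell 1.28-fold in Nbeal2-/- and 1.32-fold in WT cells (log2 fold change -0.36, SE 0.074, adjusted p = 0.000523, and log2 fold change -0.40, SE 0.074, adjusted p = 0.000174). The third core subunit, mt-Co3, fell by 0.31 in Nbeal2-/- and by 0.35 in WT cells on the log2 scale (adjusted p = 0.000270 and 7.91e-05).

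Among the 7 core subunits of complex I, which form its proton-pumping membrane arm, 4 fell in both genotypes. mt-Nd3 had 163, 167, 175 and 153 CPM with IL-33 against 260.5, 193, 207 and 212 CPM untreated in Nbeal2-/- cells, and 143, 158, 147 and 141 CPM against 217, 188, 180.2 and 179 CPM in WT cells. Its groups did not overlap in either genotype (log2 fold change -0.41 (SE 0.082, adjusted p = 0.000380) in Nbeal2-/- and -0.38 (SE 0.082, adjusted p = 0.000739) in WT cells). mt-Nd1, mt-Nd2 and mt-Nd4 fell by 0.23, 0.28 and 0.27 in Nbeal2-/- cells and by 0.13, 0.23 and 0.25 in WT cells on the log2 scale, although mt-Nd1 did not pass in WT cells without a filter on low counts (-0.13). Cytochrome b of complex III, mt-Cytb, fell by 0.27 and 0.26 in Nbeal2-/- and WT cells (adjusted p = 0.00139 and 0.00174). For mt-Atp6, which forms the proton path of ATP synthase with the c-ring, the log2 fold changes were -0.35 (SE 0.071, adjusted p = 0.000401) in Nbeal2-/- and -0.32 (SE 0.071, adjusted p = 0.000838) in WT cells.

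The other 4 mitochondrial members, mt-Nd4l, mt-Nd5, mt-Nd6 and mt-Atp8, did not pass in either genotype. mt-Nd5, the largest membrane subunit of complex I, had 1817, 1774, 1837 and 1609 CPM with IL-33 against 1358, 2000.3, 2132 and 1872 CPM untreated in Nbeal2-/- cells. In WT cells it had 1804, 1959, 1854 and 1622 CPM against 1749, 2220.2, 2158 and 2018 CPM. The untreated library numbered 1 was the lowest of its group in both genotypes. mt-Nd4l showed the same, at 87.9, 146, 158 and 142 CPM in untreated Nbeal2-/- and 106, 153, 140.4 and 145 CPM in untreated WT libraries. Without those libraries mt-Nd4l, mt-Nd5 and mt-Atp8 fell in both genotypes, so that 12 of 13 passed in each (background 30.9% in Nbeal2-/- and 32.0% in WT cells). mt-Nd5 then had a log2 fold change of -0.21 in Nbeal2-/- cells (adjusted p = 0.00885) and -0.26 in WT cells (adjusted p = 0.00170). The remaining member, mt-Nd6, ranged from 14.8 to 41.9 CPM over the 16 libraries with no separation of groups.

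Nuclear members moved in both directions with IL-33. In WT cells 28 of 89 rose (31.5%) and 6 fell (6.74%), against 28.9% higher and 28.6% lower among all genes tested, so the share that rose was near the background. In Nbeal2-/- cells 10 rose (11.2%) and 16 fell (17.98%), against 27.2% higher and 27.9% lower among all genes. The median log2 fold change was -0.017 in Nbeal2-/- and 0.10 in WT cells. These splits depend on scaling: with library totals alone, 3 rose and 33 fell in Nbeal2-/- cells and 15 rose and 12 fell in WT cells, while the median of all genes moved to -0.13 in Nbeal2-/- and -0.087 in WT cells. With upper-quartile factors 5 rose and 20 fell in Nbeal2-/- and 20 rose and 9 fell in WT cells. No share of all genes called is given here for these scalings or for single libraries left out. Without the untreated libraries numbered 1, 31 rose and 16 fell in Nbeal2-/- cells (background 27.5% and 30.9%) and 53 rose and 7 fell in WT cells (background 30.5% and 32.0%). Leaving out 1 library at a time, 23 rose and 10 fell in Nbeal2-/- cells without the untreated library numbered 1, and 6 rose without any one of the other 7. In WT cells 40 rose without the untreated library numbered 1 and 18 without the one numbered 4. Under the changes of scaling and without both untreated libraries numbered 1, 9 or more of the mitochondrial members fell in each genotype.

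By complex, the count of rises in WT cells was 7 of 17 for ATP synthase, 4 of 8 for complex III, 5 of 15 for complex IV, 2 of 4 for complex II, 8 of 37 for complex I and 2 of 8 for its assembly factors (28.9% of all genes rose). Falls in WT cells were 3 in complex I, 2 in complex IV and 1 assembly factor (28.6% of all genes fell). In Nbeal2-/- cells 4 members of ATP synthase rose, as did 3 of complex I and 1 each of complex III, complex IV and the assembly factors (27.2% of all genes rose). Falls in Nbeal2-/- cells were 6 in complex I, 4 assembly factors, 3 in complex IV, 2 in ATP synthase and 1 in complex II (27.9% of all genes fell). The falls in complex I include the pseudogene Ndufb4c in both genotypes. Across the 89 nuclear members the WT and Nbeal2-/- responses had a Pearson correlation of 0.90, a description only, as members share libraries. The 10 that rose in Nbeal2-/- cells were among the 28 of WT cells, 5 fell in both, and none was called in opposite directions.

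**Figure D2:**
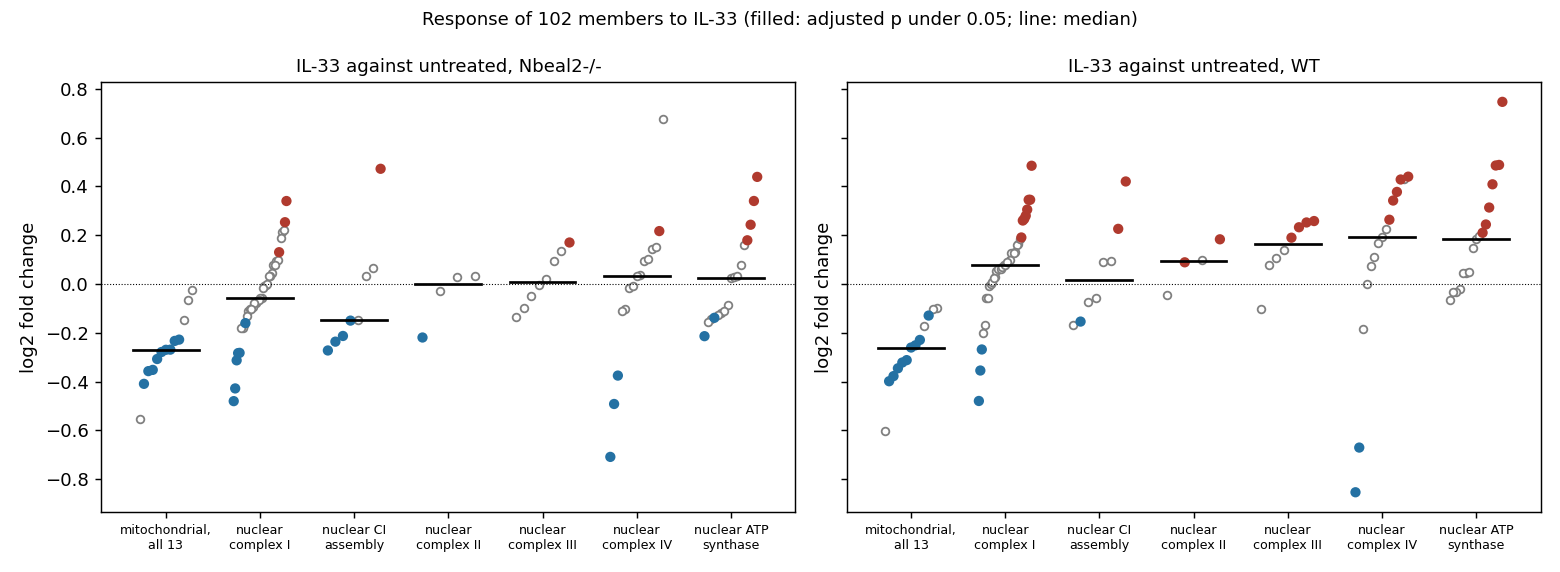
Log2 fold change of each member with IL-33 against untreated, in Nbeal2-/- cells (left) and WT cells (right), by genome and complex. Filled points passed an adjusted p of 0.05, red for higher and blue for lower, and lines are medians. The mitochondrial members lie below 0 in both panels, with medians of -0.27 and -0.26, while the nuclear ATP synthase median is 0.026 in Nbeal2-/- and 0.19 in WT cells.

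The largest rise of WT cells, and the next after Ndufaf3 in Nbeal2-/- cells, was in the peripheral stalk of ATP synthase, the stator that holds the catalytic head still while the c-ring turns. Its b subunit, Atp5pb (chr3:105942698-105960099, minus strand), had 519, 536, 526 and 539 CPM with IL-33 against 462, 354, 371 and 376 CPM untreated in Nbeal2-/- cells. WT cells had 574, 584, 591 and 586 CPM against 411, 313, 336 and 332 CPM. All libraries with IL-33 exceeded all untreated ones, 1.36-fold in Nbeal2-/- and 1.68-fold in WT cells (log2 fold change 0.44, SE 0.080, adjusted p = 0.000165, and log2 fold change 0.75, SE 0.081, adjusted p = 4.06e-07). In the catalytic head, the beta subunit Atp5b averaged 976 ± 17.7 CPM with IL-33 and 862 ± 34.5 CPM untreated in Nbeal2-/- cells. WT cells had 937 ± 44.7 CPM with IL-33 and 706 ± 32.7 CPM untreated (SD, n = 4 each). It rose in both, with log2 fold changes of 0.18 (SE 0.046, adjusted p = 0.00321) in Nbeal2-/- and 0.41 (SE 0.046, adjusted p = 7.12e-07) in WT cells. Atp5md, a small membrane subunit linked to dimers of the enzyme, had 62.0, 74.5, 67.5 and 68.0 CPM with IL-33 against 69.3, 46.8, 49.5 and 49.2 CPM untreated in Nbeal2-/- cells, and 63.2, 69.1, 69.9 and 66.9 CPM against 64.7, 41.2, 44.3 and 41.6 CPM in WT cells. Its untreated libraries numbered 1 reached the level with IL-33, and it passed in both genotypes all the same (0.34, adjusted p = 0.0432, and 0.49, adjusted p = 0.00581).

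The c-ring is built from identical mature subunits encoded by 3 genes, Atp5g1, Atp5g2 and Atp5g3, and these differed in their response. Atp5g1 (chr11:96068852-96075670, minus strand) had 92.1, 87.6, 89.1 and 93.0 CPM with IL-33 against 90.3, 71.4, 71.7 and 72.5 CPM untreated in Nbeal2-/- cells. In WT cells Atp5g1 had 80.4, 81.3, 91.3 and 84.0 CPM against 67.1, 53.8, 66.2 and 53.2 CPM. It rose in both genotypes, by 0.24 (SE 0.084, adjusted p = 0.0210) in Nbeal2-/- and 0.49 (SE 0.084, adjusted p = 8.81e-05) in WT cells, though its groups overlapped in Nbeal2-/- cells through the untreated library numbered 1. Atp5g2 (chr15:102662864-102672352, minus strand) had 59.0, 58.8, 60.8 and 60.9 CPM with IL-33 against 80.9, 64.5, 66.6 and 65.8 CPM untreated in Nbeal2-/- cells. In WT cells Atp5g2 had 58.4, 56.5, 58.5 and 56.1 CPM against 58.9, 50.8, 58.3 and 54.6 CPM. It fell in Nbeal2-/- cells (-0.21 (SE 0.064, adjusted p = 0.00862)) and did not pass in WT cells (0.044 (SE 0.064, adjusted p = 0.575)). Atp5g3 rose in WT cells (0.24 (SE 0.072, adjusted p = 0.00748)), which did not pass with library totals alone (0.15), and had 0.026 in Nbeal2-/- cells (adjusted p = 0.781). Where Atp5g1 and Atp5g2 transcripts align, 84.5% of 252 bases are identical.

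Complex IV, under which Cox7a2l is counted here by its symbol alone, held both the largest nuclear fall and several rises. Cox7a2l (chr17:83501918-83517330, minus strand) had 68.8, 67.6, 67.7 and 70.8 CPM with IL-33 against 137, 97.0, 111 and 104 CPM untreated in Nbeal2-/- cells. WT cells had 60.7, 61.2, 60.9 and 61.4 CPM with IL-33 against 126, 105, 102 and 109 CPM untreated. No library overlapped, and Cox7a2l fell 1.63-fold in Nbeal2-/- and 1.81-fold in WT cells (log2 fold change -0.71, SE 0.083, adjusted p = 1.21e-06, and log2 fold change -0.85, SE 0.083, adjusted p = 1.17e-07). Its relative Cox7a2, the ordinary subunit of complex IV in most tissues, went the other way in WT cells: it had 93.1, 101, 103 and 99.6 CPM with IL-33 against 83.6, 67.9, 71.5 and 71.5 CPM untreated (log2 fold change 0.43 (SE 0.074, adjusted p = 8.78e-05)). In Nbeal2-/- cells Cox7a2 had 92.3, 99.5, 98.4 and 101 CPM against 103, 78.8, 83.1 and 86.7 CPM and did not pass (0.15, adjusted p = 0.0922), although it did without the untreated libraries numbered 1 (0.21, adjusted p = 0.000401). The muscle isoform of the same family, Cox7a1, was scarce, at 0.622 to 2.56 CPM in the 16 libraries, and passed in no comparison.

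Cox7b, a small subunit needed for assembly of the complex, rose in both genotypes (0.22 (SE 0.088, adjusted p = 0.0457) in Nbeal2-/- and 0.44 (SE 0.088, adjusted p = 0.000373) in WT cells). Ndufa4, once counted with complex I and now known as a subunit of complex IV, rose in WT cells (0.38 (SE 0.089, adjusted p = 0.00156)) and had 0.10 in Nbeal2-/- cells (adjusted p = 0.355), where it passed without the untreated libraries numbered 1 (0.18, adjusted p = 0.0171). Cox5a, a structural subunit of the matrix side, fell in Nbeal2-/- cells, to 126, 135, 130.2 and 137 CPM with IL-33 against 209.9, 152, 158 and 164 CPM untreated (-0.38 (SE 0.098, adjusted p = 0.00351)). In WT cells Cox5a had 121, 128, 135 and 125 CPM against 176, 129, 141 and 131 CPM and did not pass (-0.18, adjusted p = 0.121). Cox6b2, the testis isoform of subunit VIb, fell in both genotypes at a low level, to 5.03, 5.13, 4.46 and 3.77 CPM with IL-33 against 7.54, 7.24, 6.24 and 4.84 CPM untreated in Nbeal2-/- cells. In WT cells it was 5.66, 5.59, 4.84 and 4.30 CPM against 8.66, 8.59, 8.58 and 6.72 CPM, and the log2 fold changes were -0.49 (SE 0.14, adjusted p = 0.00675) in Nbeal2-/- and -0.67 (SE 0.14, adjusted p = 0.000471) in WT cells. The common isoforms Cox4i1, Cox6a1, Cox6b1 and Cox8a, at group means of 122 to 239 CPM, passed in neither genotype with all libraries. Without the untreated libraries numbered 1, Cox6a1 rose by 0.16 in Nbeal2-/- and 0.32 in WT cells (adjusted p = 0.00413 and 5.50e-06), and Cox6b1 by 0.14 and 0.28 (adjusted p = 0.0232 and 6.67e-05), while Cox4i1 and Cox8a again did not pass.

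**Figure D3:**
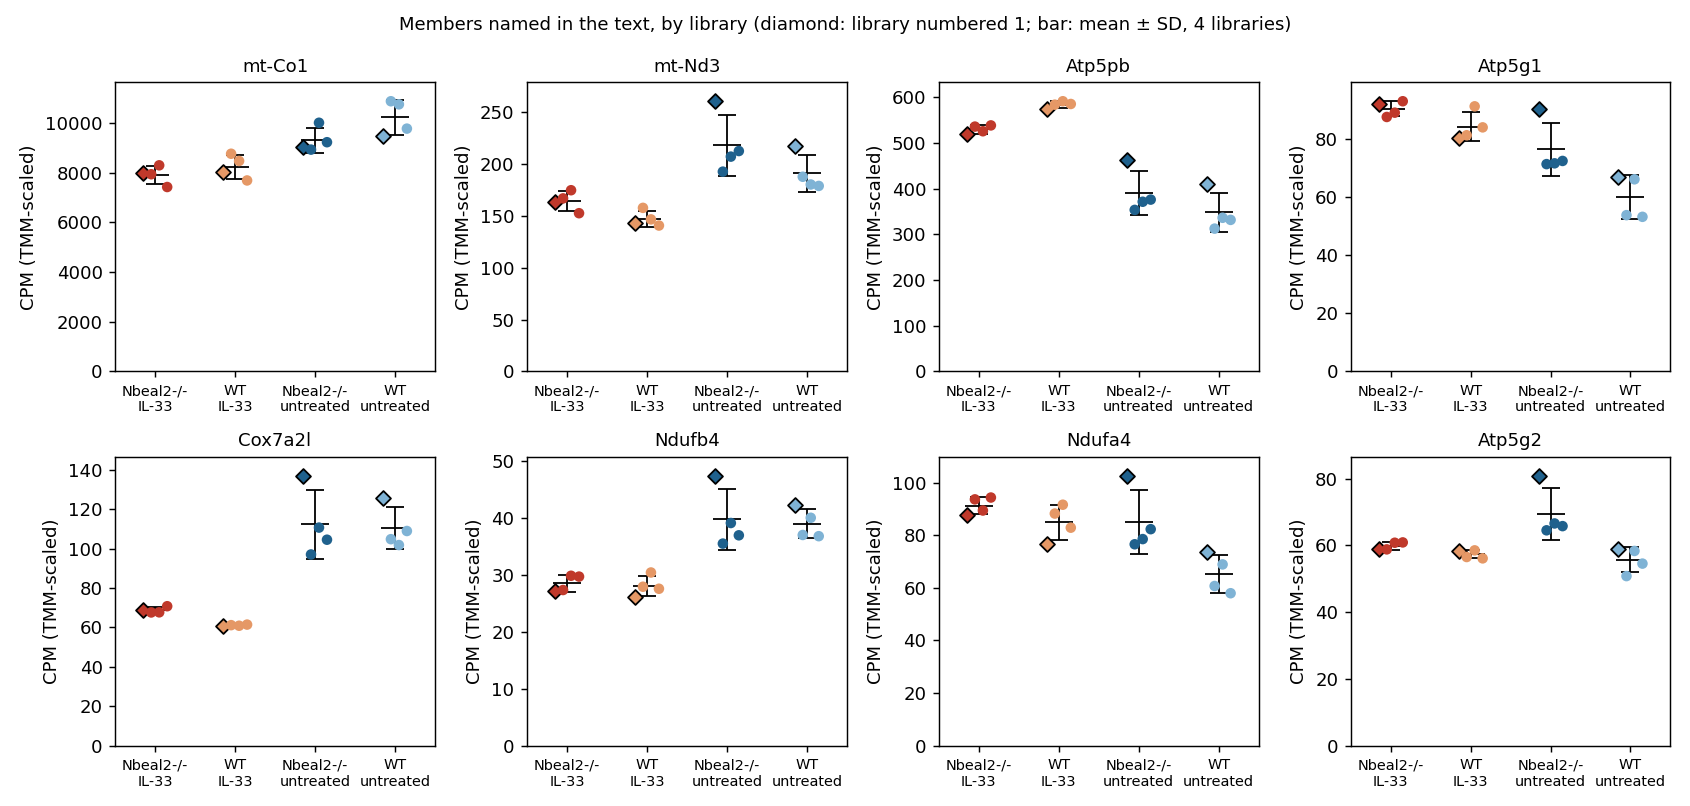
CPM after TMM scaling of 8 members in the 16 libraries, by group. Points are libraries, diamonds the libraries numbered 1 and bars the mean ± SD of 4. mt-Co1, mt-Nd3, Ndufb4 and Cox7a2l are lower in both groups with IL-33, Atp5pb is higher in both, and Atp5g1, Atp5g2 and Ndufa4 are lowest in untreated WT cells by group mean.

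Among the 37 nuclear members of complex I, the pseudogene Ndufb4c included, rises and falls were both seen in either genotype. Ndufs5, an accessory subunit at the intermembrane face, had 49.5, 51.6, 49.2 and 53.1 CPM with IL-33 against 50.7, 36.4, 37.1 and 36.5 CPM untreated in Nbeal2-/- cells, and 49.1 to 51.7 CPM in the 4 libraries with IL-33 against 41.4, 32.2, 35.6 and 34.7 CPM untreated in WT cells. In WT cells its groups were apart, and in Nbeal2-/- cells the untreated library numbered 1 lay among those with IL-33 (log2 fold change 0.34 (SE 0.093, adjusted p = 0.00475) and 0.48 (SE 0.093, adjusted p = 0.000240) in Nbeal2-/- and WT cells). Ndufs4, whose loss in mice gives a Leigh-like encephalopathy, rose by 0.25 (SE 0.091, adjusted p = 0.0254) in Nbeal2-/- and 0.35 (SE 0.091, adjusted p = 0.00361) in WT cells. Ndufs1, the largest iron-sulfur subunit of the peripheral arm, rose by 0.13 and 0.19 in Nbeal2-/- and WT cells. Ndufb4, an accessory subunit of the membrane arm, fell alike, to 27.1, 27.3, 29.8 and 29.7 CPM with IL-33 against 47.4, 35.5, 39.1 and 36.9 CPM untreated in Nbeal2-/- cells. In WT cells Ndufb4 had 26.1, 27.9, 30.4 and 27.6 CPM against 42.2, 37.0, 40.0 and 36.8 CPM, and the log2 fold changes were -0.48 (SE 0.080, adjusted p = 6.00e-05) in Nbeal2-/- and -0.48 (SE 0.080, adjusted p = 5.70e-05) in WT cells. The processed pseudogene Ndufb4c (chr15:73809507-73809896) is identical to the Ndufb4 transcript over all 390 of its bases, so reads cannot be split between them with certainty. Its own calls (-0.43 in Nbeal2-/- and -0.35 in WT cells) are not separate results. Ndufa6 fell in WT cells (-0.27 (SE 0.080, adjusted p = 0.00824)), and Ndufb10, Ndufb11, Ndufa9 and Ndufs7 fell in Nbeal2-/- cells by 0.16 to 0.31 on the log2 scale (0.12 to 0.22 without the untreated libraries numbered 1).

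Among the assembly factors, Ndufaf3, which acts early on the peripheral arm, rose in both genotypes. It had 21.8, 22.2, 21.7 and 24.4 CPM with IL-33 against 18.3, 15.6, 15.7 and 15.3 CPM untreated in Nbeal2-/- cells, and 21.5, 21.6, 20.1 and 21.4 CPM against 17.3, 15.3, 15.2 and 15.4 CPM in WT cells. No library overlapped in either genotype (log2 fold change 0.47 (SE 0.065, adjusted p = 8.01e-06) and 0.42 (SE 0.065, adjusted p = 2.80e-05) in Nbeal2-/- and WT cells). Ndufaf7, a methyltransferase of a complex I subunit, fell slightly in both (-0.15 in Nbeal2-/- and -0.15 in WT cells), and in WT cells it did not pass without the untreated libraries numbered 1 (-0.12). In complex III the core subunit Uqcrc2 rose in both genotypes, by 0.17 (SE 0.035, adjusted p = 0.000524) in Nbeal2-/- and 0.26 (SE 0.035, adjusted p = 6.61e-06) in WT cells. Complex II, which also belongs to the tricarboxylic acid cycle, had small changes only: Sdha and Sdhb rose by 0.089 and 0.18 in WT cells, and the membrane anchor Sdhd fell by 0.22 in Nbeal2-/- cells. Without the untreated libraries numbered 1, Sdha had 0.060 and did not pass.

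Small rises in Nbeal2-/- cells depended on single libraries and on scaling. Leaving out any 1 of the 4 libraries with IL-33 or of the untreated libraries numbered 2, 3 and 4 ended the calls of Atp5md (0.27 to 0.36), Cox7b (0.17 to 0.21) and Ndufs4 (0.20 to 0.24) on the log2 scale. The call of Atp5g1 in Nbeal2-/- cells ended likewise (0.21 to 0.23), other than without the IL-33 library numbered 2. With library totals alone these 4 rises were 0.13 for Atp5g1, 0.23 for Atp5md, 0.10 for Cox7b and 0.14 for Ndufs4, none of them past the threshold.

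Between genotypes, most fold changes of nuclear members were toward untreated Nbeal2-/- cells. The nuclear sums overlapped, at 8253 to 9986 RPM in untreated Nbeal2-/- and 7032 to 8810 RPM in untreated WT cells. Of 89 nuclear members 26 were higher than in untreated WT cells (29.2%, against 18.4% of all genes) and none was lower (17.5% of all genes). For the lower direction 3 members had an unadjusted p under 0.05 in the same edgeR fit, DESeq2 called 2 and limma-voom called 0. The fold change was positive in 85 of 89, with a median of 0.16 on the log2 scale against -0.0081 over all genes. The rises lay in every complex: 8 in ATP synthase, 7 in complex I, 5 in complex IV, 3 in complex III, 2 assembly factors and 1 in complex II. All complex medians lay between 0.15 and 0.18. Without the untreated libraries numbered 1, 54 nuclear members were higher and 1 was lower (background 19.6% and 19.3%), with 25 of the 26 among them. With library totals alone, 33 were higher, and for this and for single libraries left out no share of all genes is given. Leaving out single libraries moved the count both ways, to 62 without the untreated WT library numbered 1, but to 15 without the untreated Nbeal2-/- library numbered 1, 15 without the WT library numbered 2 and 13 without the WT library numbered 4.

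Beside these counts, the difference between genotypes followed transcript length over all genes. The shortest length quartile of tested genes, up to 1859 nucleotides, had a median log2 difference of 0.11 in untreated cells, the next quartiles 0.019 and -0.020, and the longest, from 6007 nucleotides, -0.089. The summed mast cell markers differed too, as given above, and the sum of 6 macrophage markers was 29.2 to 40.2 RPM in untreated Nbeal2-/- cells and 18.7 to 23.9 RPM in untreated WT cells. Adgre1 reached at most 32.4 RPM in any library and Csf1r 0.510 RPM. The part of length, of the libraries numbered 1 and of other cell types in the genotype result was not tested.

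The rises in untreated Nbeal2-/- cells with the highest fold changes were those of Ndufa4, Ndufaf6, Atp5g1, Ndufa12 and Atp5g2, which belong to complex IV, the assembly factors, the c-ring and complex I. Atp5g1, with the libraries given above, averaged 76.5 ± 9.25 CPM in Nbeal2-/- and 60.1 ± 7.57 CPM in WT cells (log2 fold change 0.35, SE 0.084, adjusted p = 0.00438), and the groups did not overlap. Atp5g2 averaged 69.4 ± 7.68 CPM and 55.6 ± 3.76 CPM in Nbeal2-/- and WT cells (log2 fold change 0.32, SE 0.064, adjusted p = 0.00107), again with no overlap, and Atp5g3 was higher by 0.26 (SE 0.072, adjusted p = 0.0107). Ndufa4 (chr6:11900292-11907497, minus strand) had 103, 76.5, 78.5 and 82.3 CPM in untreated Nbeal2-/- cells and 73.6, 60.7, 68.9 and 57.95 CPM in untreated WT cells. Each Nbeal2-/- library exceeded each WT library (log2 fold change 0.38, SE 0.089, adjusted p = 0.00345), and without the libraries numbered 1 the value was 0.34 (adjusted p = 0.000781). Ndufa12, an accessory subunit of complex I, had 38.4, 29.4, 31.3 and 30.6 CPM against 29.0, 22.7, 27.6 and 23.6 CPM, without overlap (log2 fold change 0.33, SE 0.087, adjusted p = 0.00683). The assembly factor Ndufaf6 had 7.40, 6.90, 6.55 and 7.11 CPM against 6.02, 4.78, 5.17 and 5.45 CPM, likewise apart (log2 fold change 0.38, SE 0.088, adjusted p = 0.00307). Atp5b, at 0.29 (SE 0.046, adjusted p = 0.000185), the Rieske iron-sulfur protein Uqcrfs1, at 0.22 (SE 0.070, adjusted p = 0.0213), and Sdhd, at 0.22 (SE 0.059, adjusted p = 0.00805), were smaller rises of the same kind. The lowest values, none past the threshold, were those of Cox7a1 (-0.80, adjusted p = 0.0625), Cox6b2 (-0.33, adjusted p = 0.0682) and the accessory complex I subunit Ndufv3 (-0.25, adjusted p = 0.0938).

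**Figure D4:**
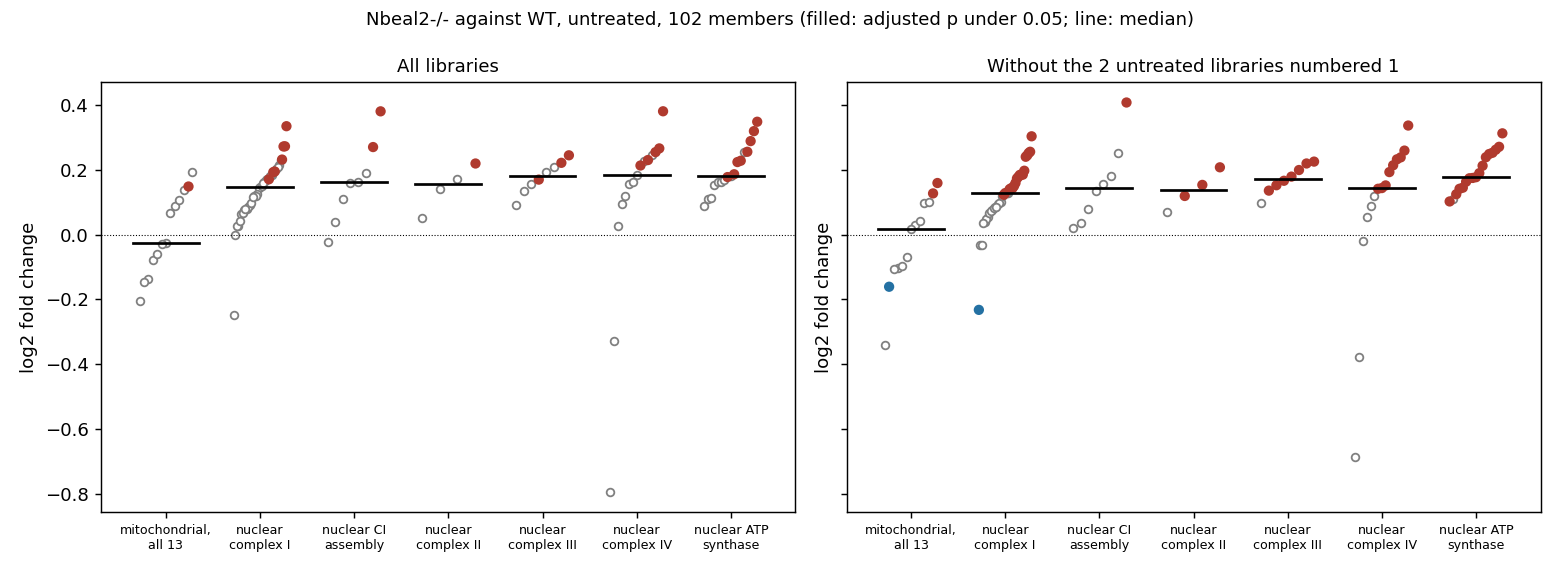
Log2 fold change of each member in untreated Nbeal2-/- against untreated WT cells, by genome and complex, with all libraries (left) and without the untreated libraries numbered 1 (right). Filled points passed an adjusted p of 0.05, and lines are medians. Nuclear medians lie between 0.15 and 0.18 on the left, and the median of the mitochondrial members is -0.027 on the left and 0.017 on the right.

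The mitochondrial members did not share that difference. In untreated cells 1 of 13 was higher in Nbeal2-/- (background 18.4%), namely mt-Nd1, and none was lower, with a median of -0.027. mt-Nd1 had 2611, 2300.3, 2439 and 2361 CPM in untreated Nbeal2-/- cells and 2264, 2153, 2186 and 2144 CPM in untreated WT cells, without overlap (log2 fold change 0.15, SE 0.046, adjusted p = 0.0164), and did not pass without the untreated WT library numbered 4 (0.14). For the lower direction 1 member had an unadjusted p under 0.05, DESeq2 called 1 and limma-voom 0. Without the libraries numbered 1, mt-Nd1 (0.13, adjusted p = 0.0220) and mt-Nd3 (0.16, adjusted p = 0.0235) were higher and mt-Co1 was lower (-0.16, adjusted p = 0.0357).

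With IL-33 no member differed between genotypes, of 102, in the edgeR test (background 5.49% higher and 5.69% lower). At an unadjusted p under 0.05, 2 nuclear members were higher and 0 lower, and no mitochondrial member passed. DESeq2 called 1 nuclear member higher and limma-voom called 0. The median of the nuclear members was 0.027, and that of the mitochondrial members 0.048. Some groups nevertheless did not overlap: Cox7a2l had 68.8, 67.6, 67.7 and 70.8 CPM in Nbeal2-/- cells with IL-33 and 60.7, 61.2, 60.9 and 61.4 CPM in WT cells with IL-33, and Atp5pb had 519, 536, 526 and 539 CPM and 574, 584, 591 and 586 CPM in the same groups. Their adjusted p-values of 0.216 and 0.304 come from a spread shared by all 16 libraries, in which the untreated libraries numbered 1 take part. Without those, 4 members passed: Cox7a2l (0.17, adjusted p = 0.00489), the assembly factor Ndufaf1 (0.20, adjusted p = 0.0161) and mt-Nd3 (0.16, adjusted p = 0.0210) were higher, and Atp5pb (-0.14, adjusted p = 0.00593) was lower in Nbeal2-/- cells (background 10.7% higher and 9.74% lower).

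Whether the response to IL-33 itself differed between genotypes was tested as the Nbeal2-/- response minus the WT response. No member passed in the edgeR test with all libraries (background 2.01% higher and 2.55% lower). At an unadjusted p under 0.05, 14 nuclear members were lower and 0 higher, no mitochondrial member passed, and DESeq2 and limma-voom each called 1 nuclear member lower. The median difference was -0.14 over nuclear and -0.0093 over mitochondrial members, against 0.013 over all genes, and 81 of 89 nuclear members had the higher response in WT cells. This difference too went with transcript length over all genes, with medians of -0.066, -0.0063, 0.020 and 0.067 in the length quartiles from shortest to longest, and its part in the result was not tested. The lowest adjusted p among the ATP synthase subunits named here was that of Atp5b, -0.23 (SE 0.065, adjusted p = 0.0545).

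Without the untreated libraries numbered 1 the difference passed for 13 nuclear members, 12 lower and 1 higher (background 5.13% and 4.91%). ATP synthase held 6 of the 12: Atp5pb (-0.31, adjusted p = 0.00115), the small membrane subunits Atp5k (-0.26) and Atp5j2 (-0.24), Atp5b (-0.21), Atp5g3 (-0.21) and Atp5g2 (-0.20). The others ran from Cox7a2 at -0.26, over Ndufab1, Ndufa11, Cox7b and Uqcrfs1, to Sdhd at -0.16. Cox7a2l was the member with the higher difference (0.19, adjusted p = 0.0498), which means that its fall was smaller in Nbeal2-/- cells. The comparison of untreated genotypes and the responses to IL-33 share the untreated libraries, so a high or low untreated group moves them together. Side by side, Ndufa4 had 0.38 between untreated genotypes, 0.10 with IL-33 in Nbeal2-/- and 0.38 with IL-33 in WT cells, and Atp5g2 had 0.32, -0.21 and 0.044 in the same order.

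Genes around the complexes were counted in the same fit. The mitochondrial ribosome translates the 13 mitochondrial messengers, and its 77 tested proteins are all nuclear. Of these 42 were higher in untreated Nbeal2-/- than in untreated WT cells (18.4% of all genes; 51 without the libraries numbered 1), among them Mrpl37 at 0.31 and Mrps10 at 0.40 (adjusted p = 0.000824 and 0.00156). With IL-33, 10 rose and 16 fell in Nbeal2-/- cells (27.2% and 27.9% of all genes) and 30 rose and 2 fell in WT cells (28.9% and 28.6% of all genes), and Mrpl14 rose in both, by 0.91. With library totals alone these became 6 and 33 in Nbeal2-/- and 16 and 11 in WT cells. Of 19 genes of the tricarboxylic acid cycle and pyruvate dehydrogenase, which feed electrons to the complexes, 6 rose and 4 fell with IL-33 in Nbeal2-/- cells and 12 rose and 3 fell in WT cells, against the same shares of all genes. Citrate synthase (Cs) rose by 0.40 in Nbeal2-/- and 0.43 in WT cells, and 11 of the 19 were higher in untreated Nbeal2-/- than in untreated WT cells (18.4% of all genes).

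Electron carriers and exchangers outside the naming rule numbered 11 in the test. Of these, Slc25a5, an ADP/ATP carrier, and Cyc1, the cytochrome c1 subunit of complex III whose symbol the rule does not match, responded less in Nbeal2-/- cells, by -0.36 (adjusted p = 0.0252) and -0.31 (adjusted p = 0.0275). Both were higher in untreated Nbeal2-/- than in untreated WT cells, by 0.42 and 0.34. Cytochrome c itself (Cycs) rose with IL-33 by 0.39 in Nbeal2-/- and 0.68 in WT cells, and Atpif1, the inhibitor of the reverse reaction of ATP synthase, fell by 0.51 and 0.42. Of 44 assembly factors outside the naming rule, 7 rose and 13 fell in Nbeal2-/- cells (27.2% and 27.9% of all genes) and 7 rose and 7 fell in WT cells (28.9% and 28.6% of all genes), with the complex III factor Ttc19 highest at 1.09 and 1.27.

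Of 30 genes that maintain or express the mitochondrial genome, 8 rose and 10 fell with IL-33 in Nbeal2-/- cells and 9 rose and 7 fell in WT cells, shares near the background of 27.2% and 27.9% in Nbeal2-/- and 28.9% and 28.6% in WT cells. Polg, the catalytic subunit of the mitochondrial DNA polymerase, fell by 1.02 in Nbeal2-/- and 1.08 in WT cells, and Supv3l1, a helicase of mitochondrial RNA decay, rose by 0.48 and 0.66. Rexo2, a nuclease that clears short RNA in mitochondria, was higher in Nbeal2-/- cells both with IL-33 (0.30, adjusted p = 0.00244) and untreated (0.38, adjusted p = 9.85e-05). Of 11 regulators, the coactivator Ppargc1b fell with IL-33 by 1.01 in Nbeal2-/- and 0.97 in WT cells, and Gabpb1, a GABP subunit, rose by 0.40 and 0.50. Myc was higher in untreated Nbeal2-/- than in untreated WT cells by 0.68 (adjusted p = 1.09e-07), and its response to IL-33 was lower there by -0.41 (adjusted p = 0.00358). No set test was made on any of these lists.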

How the data were processed

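RNA was extracted with Qiazol and sequenced as directional poly(A)-selected libraries, per the labels' protocols. The submitters' processing notes name bcl2fastq 2.20.0.422, featureCounts 1.6.5 and the build GRCm38, and the aligner, annotation release and strand setting of the counting were not stated there. The authors deposited raw counts of 55487 genes in 16 libraries, and the same libraries as RPM and RPKM. The deposited RPM values equalled counts scaled by the column total (largest difference 4.91e-11). RPKM values, per the file headers per length as well, served for levels only. Of the genes, 29066 had no count in any library. Libraries of a group differed beyond sampling noise (chi-square per degree of freedom of at least 5.34), so each counted as 1 sample.

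Tests used edgeR 4.0.16 in R 4.3.3 on the counts: filterByExpr over the 4 groups (15470 genes), TMM factors (0.951 to 1.06), 4 group means, robust quasi-likelihood, and Benjamini-Hochberg adjustment over all genes with a threshold of 0.05. The common biological coefficient of variation was 9.56%. The method was tested on simulated counts. Alternatives were other scalings, no filter, DESeq2 1.42.0, limma-voom (limma 3.58.1), replicate blocks and leaving out libraries. Those without the libraries numbered 1 were chosen after seeing the data. The members, gene lists and tests were chosen with earlier results of these data known. Named were the mitochondrial members, for each contrast the 5 largest called nuclear rises and falls, isoform families, the highest and lowest levels, and up to 4 genes per related list and contrast by smallest p. Other members named in the text, such as Atp5b, Uqcrc2, Sdhd, Ndufs1 and Ndufaf1, were chosen after their values were seen, to cover each complex. Within a genotype, libraries with the same number deviated together (r = 0.288 to 0.369 in WT and 0.171 to 0.340 in Nbeal2-/-, against at most 0.0436 for different numbers), so the numbers pair treated and untreated cultures. The main fit did not use this pairing, so the p-values and SE of named members are unpaired, and the paired fit is given as counts only. Leaving out the untreated libraries numbered 1 keeps their partners with IL-33. Positions come from GENCODE M21, motif and promoter sequences from RefSeq on GRCm38.p6.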

Additional observations from a re-analysis of the deposited data

Results flagged for a closer look

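In groups of 4 libraries, a library was marked where its gap to the nearest other, as a share of the range of the group, exceeded Dixon's 95% critical value. Chance alone marks about 1 in 20 such groups, and 21 of the 168 sets of values examined were marked.

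Most of the marked values, 11, were in the untreated Nbeal2-/- library numbered 1, each above the other 3. They were mt-Nd6 at 41.9 CPM (others 17.2 to 19.2), Atp5g1 at 90.3 CPM (71.4 to 72.5), Atp5g2 at 80.9 CPM (64.5 to 66.6), Atp5md at 69.3 CPM (46.8 to 49.5) and Ndufs5 at 50.7 CPM (36.4 to 37.1). Further ones there were Ndufaf3 at 18.3 CPM (15.3 to 15.7), Ndufb2 at 9.84 CPM (6.67 to 7.10), Cox4i1 at 294 CPM (216 to 226), Cox6a1 at 186 CPM (129 to 132), Cox6b1 at 171 CPM (121 to 128) and Cox8a at 194 CPM (151 to 158). The untreated WT library numbered 1 was marked for 4 genes: Atp5md at 64.7 CPM (41.2 to 44.3) and Ndufaf3 at 17.3 CPM (15.2 to 15.4) were high, and mt-Atp8 at 163 CPM (193 to 199) and Nbeal2 at 224 CPM (413 to 448) were low.

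The remaining 6 marks were scattered. Among WT libraries with IL-33, Nbeal2 was at 183 CPM in number 1 (others 249 to 258), Ndufaf3 at 20.1 CPM in number 3 (21.4 to 21.6) and Cox6a1 at 150.2 CPM in number 3 (141 to 142). mt-Atp8 was at 236 CPM in the untreated Nbeal2-/- library numbered 3 (195 to 197). In the untreated WT library numbered 4, mt-Atp6 was at 1873 CPM (2072 to 2109) and Cox6b2 at 6.72 CPM (8.58 to 8.66).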

How the results depend on the processing

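No named member called in a comparison was called in the opposite direction under an alternative. Medians near 0 did change sign: leaving out 1 library at a time, the nuclear median with IL-33 in Nbeal2-/- cells ran from -0.075 to 0.066, the mitochondrial one between untreated genotypes from -0.058 to 0.032 and the mitochondrial one for the difference in response from -0.037 to 0.024. Most counts stayed within 1.5 times their value, and the causes of the shifts below were not tested. Without the untreated libraries numbered 1, and without all libraries numbered 1, members called were 59 and 53 with IL-33 in Nbeal2-/- cells (35 with all libraries) and 72 and 71 in WT cells (43). In untreated Nbeal2-/- against WT cells they were 58 and 58 (27), with IL-33 they were 4 and 2 (0), and for the difference in response 13 and 10 (0). Nuclear members called higher were then 31 and 28 with IL-33 in Nbeal2-/- cells, 53 and 55 in WT cells, 54 and 54 between untreated genotypes and 2 and 1 between genotypes with IL-33. Nuclear members called lower were 1 and 1 in both comparisons of genotypes, and 12 and 10 for the difference in response, where 1 was higher without the untreated libraries numbered 1. Between untreated genotypes 2 mitochondrial members were higher and 1 lower in both of these fits, and with IL-33 1 was higher. Related genes called between genotypes with IL-33 were 17 higher and 5 lower (8 and 1 with all libraries), and 14 were lower for the difference in response (4). Shares of all genes are given above for the fit without the untreated libraries numbered 1. None is given for the fit without all libraries numbered 1, for other scalings, for DESeq2 and limma-voom, for replicate blocks or for single libraries left out. Counts under those settings describe how far the calls move and are not results about the members.

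With library totals alone, nuclear rises with IL-33 numbered 3 in Nbeal2-/- and 15 in WT cells and falls 33 and 12, and upper-quartile factors left 5 rises in Nbeal2-/- cells. Related genes then had 19 rises and 93 falls with IL-33 in Nbeal2-/- cells (35 and 51 with TMM) and 40 rises and 48 falls in WT cells (64 and 24). Between untreated genotypes 3 mitochondrial members were higher with library totals, and for the difference in response 1 nuclear member was lower, as with DESeq2 and limma-voom. DESeq2 also called 2 nuclear members and 1 mitochondrial member lower between untreated genotypes and 1 nuclear member higher with IL-33.

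Leaving out 1 library at a time, members called with IL-33 were 27 to 42 in Nbeal2-/- and 34 to 55 in WT cells, with nuclear rises of 6 to 23 and 18 to 40, nuclear falls of 10 to 17 and 5 to 7, and mitochondrial falls of 9 to 9 and 9 to 10. Between untreated genotypes 14 to 65 members were called, 13 to 62 nuclear ones higher and 0 to 3 lower, with 0 to 2 mitochondrial ones higher and 0 to 1 lower. The nuclear count there was 62 without the untreated WT library numbered 1, 15 without the Nbeal2-/- one numbered 1, 15 without the WT one numbered 2 and 13 without the WT one numbered 4. Between genotypes with IL-33, 0 to 1 members were called, nuclear and higher, and for the difference in response 0 to 5, nuclear and lower.

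With a replicate block for the paired cultures, 12 nuclear members rose and 13 fell with IL-33 in Nbeal2-/- cells and 30 rose and 6 fell in WT cells, which changed no other count by over 1.5 times. Across genotypes the labels do not say whether libraries of the same number belong together. Their correlations were -0.0346 to 0.506 untreated and -0.0393 to 0.238 with IL-33, against at most 0.198 and 0.108 for different numbers. In both cases the highest value was that of the libraries numbered 1, and what these share was not tested. A replicate block by number gave 34 nuclear members higher and 3 lower between untreated genotypes, with 2 mitochondrial ones higher and 1 lower. Depth was not limiting, and 4 libraries a group limit what small differences can pass.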
